A study of Zea mays with 4 samples.

Results

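PLGG1 (Zm00001d030127, annotated as plastidal glycolate/glycerate translocator 1) and catalase 2 (Zm00001d027511, catalase isozyme 2) are the 2 photorespiration genes described here, out of 46430 genes annotated in the maize count tables. They were chosen by their gene identifiers and were both counted in all libraries. Maize of the B73 inbred line was grown to the V2 seedling stage, and the distal 6 cm of the second leaf was either digested into protoplasts (cells freed from their walls) or frozen and homogenized whole. Bulk RNA sequencing covered 2 protoplast pools (protoplast 1 and protoplast 2) and 2 whole leaf pools (the libraries named leaf 1 and leaf 2), with the same genotype, growth conditions and leaf portion in both groups. The labels describe pools of segments from several plants grown together and the study's methods give another number of leaves per pool, so a p-value measures the spread between pools only. The comparison of protoplasts with whole leaf asks how protoplasting as a whole changes the mRNA that is then measured. By the study's methods, whole leaf was ground at the time of harvest, whereas protoplasts passed through a pretreatment, hours of enzyme digestion and washes. Cell release, treatment, elapsed time and the mix of cells recovered cannot be told apart.

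Photorespiration is the salvage route for the glycolate that forms when Rubisco fixes oxygen in place of carbon dioxide. PLGG1 is the carrier of the chloroplast envelope that, in Arabidopsis, lets glycolate out and brings glycerate back in, so it stands at both the start and the end of the route. Catalase breaks down the hydrogen peroxide that glycolate oxidase releases in the peroxisome. In C4 leaves such as those of maize, Rubisco and glycine cleavage are concentrated in the bundle sheath (BS), while the first fixation of carbon dioxide takes place in the mesophyll (MS).

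Leaf 1 counts were used up to a point within chromosome 3, where the table analysed here breaks off, so values of all 4 libraries were at hand for 18609 genes, and 9017 of those had enough counts to be tested. Total counts over these shared genes lay between 14976340 and 17049307 in the protoplast libraries and between 15838934 and 18322950 in the whole leaf libraries. Levels are given as CPM, the count of a gene scaled to a common total over the shared genes, after trimmed mean of M-values (TMM) scaling, where 3 counts correspond to between 0.148 and 0.232 CPM. Of the C4 markers, those of the BS separated the groups and those of the MS did not. The 5 BS markers counted in all libraries made up 0.243% and 0.229% of shared counts in protoplasts 1 and 2, against 5.47% and 5.35% in leaf 1 and leaf 2. The 2 MS markers made up 1.07% and 0.881% in the protoplasts, against 0.975% and 0.973% in whole leaf. The protoplast pools therefore held few transcripts of the BS markers, and in bulk samples fewer cells of a type and less RNA per cell cannot be told apart.

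Scaled over whole libraries, both members had lower levels in protoplasts than in whole leaf. Neither was called lower when libraries were scaled to BS genes. The list of BS genes used for that held both members and was largely chosen for change in these libraries. PLGG1 lies on the minus strand of chromosome 1 in the AGPv4 assembly, from 107762967 to 107765646, with 8 exons that together hold 1983 bases. Its raw counts were 19419 and 12025 in protoplasts 1 and 2, against 52408 and 45864 in leaf 1 and leaf 2. On the CPM scale the levels were 1207 and 928 in protoplasts, against 2583 and 2617 in whole leaf. The leaf pools were nearly level with each other. PLGG1 averaged 1068 ± 198 CPM in protoplasts and 2600.1 ± 24.6 CPM in whole leaf (SD, n = 2 each), which is 2.44-fold lower in protoplasts. The log2 fold change was -1.28 (standard error 0.17, adjusted p = 0.000969; edgeR, quasi-likelihood, Benjamini-Hochberg over every gene tested).

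Catalase 2 lies on the same chromosome and strand, from 7144392 to 7146668, with 5 exons and 1887 exon bases, of which 1245 are in the second exon. Raw counts of catalase 2 were 4582 and 5853 in protoplasts 1 and 2, against 15274 and 12674 in leaf 1 and leaf 2. Its CPM levels were 285 and 452 in protoplasts, against 753 and 723 in whole leaf. The protoplast pools were further apart than for PLGG1 and in the other order, with protoplast 2 the higher. Catalase 2 averaged 368 ± 118 CPM in protoplasts and 738 ± 20.8 CPM in whole leaf (SD, n = 2 each). The log2 fold change was -1.003 (adjusted p = 0.00943 from edgeR, standard error 0.23) and lay at the fold change limit for a call, which was a log2 fold change of 1 in either direction at an adjusted p of 0.05. That call ended without protoplast 1, at -0.70, and without leaf 1, at -0.98, whereas the value was -1.41 without protoplast 2. PLGG1 kept its call in each of these cases.

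**Figure D1:**
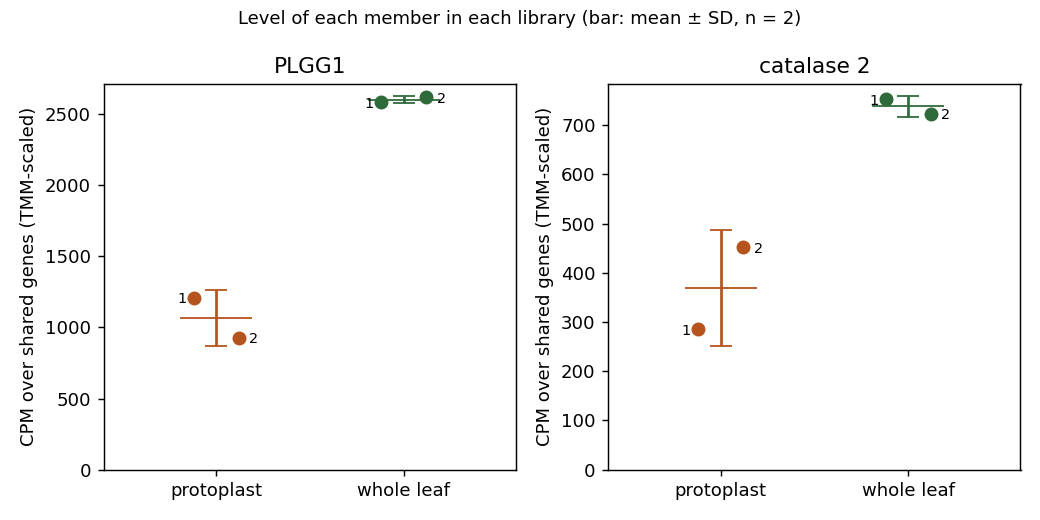
Level of PLGG1 (left) and catalase 2 (right) in each library, in CPM of the shared genes after TMM scaling on axes that start at 0; numbered points are protoplast pools 1 and 2 and whole leaf pools 1 and 2, and bars show mean ± SD (n = 2). On this whole-library scale the protoplast mean lies below the leaf mean for each gene, and protoplast 1 is the higher pool for PLGG1 (1207 against 928 CPM) but the lower one for catalase 2 (285 against 452 CPM). Neither gene was called lower with BS scaling, whose gene list held both of them.

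By these limits 43.0% of the tested genes were called in either direction and 23.4% were called lower in protoplasts, so a call of this kind was common. Among all genes tested, 20.1% had a lower fold change than PLGG1 and 24.3% had a lower one than catalase 2. Among genes of like level (average log2 CPM within 1 of the member's own), the shares were 6.86% of 102 genes for PLGG1 and 7.90% of 405 genes for catalase 2. Both members are on the study's own list of BS genes changed by protoplasting, which was drawn from these same libraries, so their direction is not independent evidence. The BS marker totals given above were lower together with both members, and their part in the result was not tested.

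The members differed in level as well as in spread. Per kilobase of exon, PLGG1 was at 609 and 468 CPM in protoplasts 1 and 2, against 1302 and 1320 CPM in leaf 1 and leaf 2. Catalase 2 was at 151 and 239 CPM per kilobase in the protoplasts, against 399 and 383 in whole leaf. PLGG1 was thus the more abundant transcript per length in each of the 4 libraries. Ordered by CPM per kilobase over the shared genes, PLGG1 held places 214 and 302 in the protoplast libraries and places 64 and 65 in the leaf libraries. The places of catalase 2 were 673 and 508 in protoplasts and 187 and 196 in whole leaf. On the log2 scale, PLGG1 was 0.38 higher in protoplast 1 than in protoplast 2, and that gap was larger than the gap of 87.3% of the genes of like level. For catalase 2 the same difference was -0.66, larger in size than for 96.3% of the genes of like level. Between the leaf libraries the differences were -0.02 for PLGG1 and 0.06 for catalase 2. The disagreement between pools was thus on the protoplast side for both genes. Genes of like level also differed more between protoplast pools than between leaf pools. Their median gaps were 0.161 against 0.0587 for the level of PLGG1, and 0.203 against 0.0838 for that of catalase 2.

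A ratio of raw counts within a library does not depend on how libraries are scaled. Catalase 2 made up 19.1% (95% Wilson interval 18.6 to 19.6) and 32.7% (32.1 to 33.4) of the counts of both members in protoplasts 1 and 2, against 22.6% (22.3 to 22.9) and 21.7% (21.3 to 22.0) in leaf 1 and leaf 2. These intervals cover counting error only. The protoplast pools lay on either side of the leaf pools. The log2 ratio of catalase 2 to PLGG1 was -1.56 ± 0.74 in protoplasts and -1.82 ± 0.054 in whole leaf (SD, n = 2 each), a difference of 0.26 with p = 1 in an exact two-sided permutation test. With 2 libraries against 2 this test cannot give a p under 0.333. The difference was 0.78 without protoplast 1 and -0.27 without protoplast 2, so no direction can be given for the balance between the members.

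Set against the BS markers, both members were higher in protoplasts than in whole leaf, although each made up a smaller part of the shared counts in protoplasts. The log2 ratio of PLGG1 to the summed BS markers was -1.09 and -1.51 in protoplasts 1 and 2, against -4.26 and -4.21 in leaf 1 and leaf 2. The difference was 2.93, or 7.63-fold. For catalase 2 the log2 ratio to the BS markers was -3.18 and -2.55 in protoplasts, against -6.03 and -6.06 in whole leaf, a difference of 3.19. Against the 2 MS markers the direction was the opposite one. The PLGG1 ratio to the MS markers was -3.24 and -3.46 in protoplasts, against -1.77 and -1.75 in whole leaf, and the difference was -1.59. The difference of the catalase 2 ratio to the MS markers was -1.33. Each exact two-sided permutation test of these 4 ratios gave p = 0.333, the smallest that 2 libraries against 2 allow. How many other genes would show such a difference was not counted, and the BS marker total itself was far lower in protoplasts. Without the Rubisco genes RBCS2 and RBCL among the BS markers, the differences were 3.88 for PLGG1 and 4.13 for catalase 2. In their protoplast to leaf change the members thus lay between the summed MS markers and the summed BS markers, although 1 BS marker, MDH, lay above both members.

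**Figure D2:**
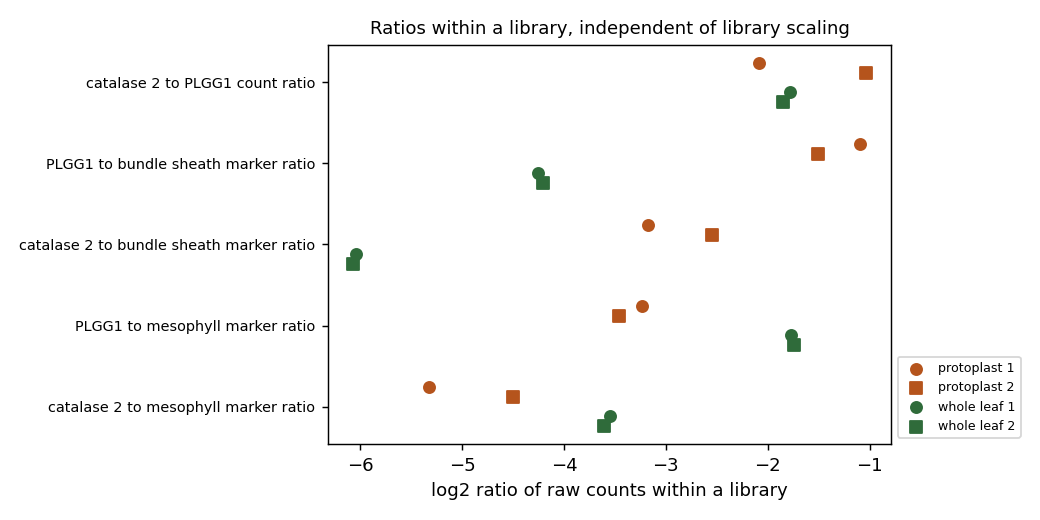
Log2 ratio of raw counts within each library, one line for each ratio; orange symbols are protoplasts and green symbols whole leaf, with circles for pool 1 and squares for pool 2. The ratios to BS markers are higher in protoplasts (PLGG1 at -1.09 and -1.51, against -4.26 and -4.21), the ratios to MS markers are lower, and the catalase 2 to PLGG1 ratios of the protoplast pools lie on either side of the leaf pools.

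The study's methods scale genes enriched in BS cells separately from the rest, and the members were no longer called lower under a scaling of that kind. The genes used for it here are not the study's marker genes but its list of BS genes changed by protoplasting joined to the BS C4 markers, so they were largely chosen for change in these libraries. The library factors were taken from this BS list of 113 genes, 53 of them with counts in every library and 2 of them the members themselves. The log2 fold change of PLGG1 was then 0.16 (standard error 0.18, adjusted p = 0.418, edgeR), and that of catalase 2 was 0.45 (standard error 0.23, adjusted p = 0.116, edgeR). Neither was called. The median log2 fold change of all genes tested was 1.42 under this scaling, against -0.02 under whole-library TMM, and 63.0% of genes were called higher and 9.95% lower. Relative to that median both members were still low. The values differed between the gene lists and the library factors tried, and without protoplast 1 PLGG1 was at -0.036. With the members taken out of the list, the values were 0.80 for PLGG1 and 1.09 for catalase 2, and catalase 2 was called higher. The 5 BS markers alone gave 1.50 for PLGG1 and 1.77 for catalase 2. List totals without TMM gave 1.79 and 2.07 for the same genes in that order, and DESeq2 size factors on the list gave 2.11 and 2.39, with both members called higher in each of these cases.

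**Figure D3:**
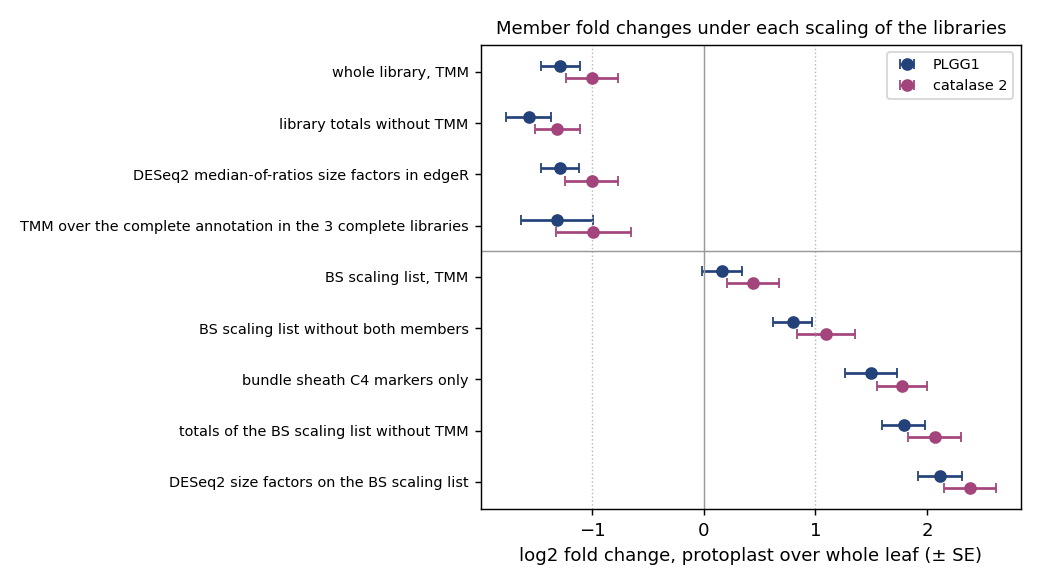
Log2 fold change (protoplast over whole leaf) ± standard error of PLGG1 (blue) and catalase 2 (magenta) under each scaling of the libraries; dotted lines mark a log2 fold change of 1 in either direction. Scalings over whole libraries (above the grey line) place both genes below 0, at -1.28 and -1.003 under TMM, and scalings to BS genes (below it) place both above 0, between 0.16 and 2.39.

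The rest of the photorespiration route showed where the members stand within it. The list held 14 genes, the members included, and 10 of these had counts in every library and were tested. Under whole-library scaling 7 of the 10 were called lower, against 23.4% of all genes tested, and 3 were not called. None was called higher by edgeR, limma-voom or DESeq2, and 0 of them were higher at an unadjusted p of 0.05 by any of these tools. Their median log2 fold change was -1.16, against -0.02 for all genes tested. Of the 8 tested genes other than the members, 5 were called lower and the median was -1.20. The study's list of BS genes, chosen for their change in these same libraries, holds 5 of the 10 tested genes (the members among them), so the direction of those 5 is not independent evidence. All 5 were called lower. Of the 5 tested genes outside that list, 2 were called lower and 3 were not called. Without leaf 1, 6 of the 10 genes were called lower. With the BS scaling 3 were called lower and 0 higher, against 9.95% and 63.0% of all genes tested, and 3 were higher at an unadjusted p of 0.05 by edgeR.

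Glycolate oxidation, the step between the members, could be followed through 2 genes. Glycolate oxidase1 (Zm00001d018810), the peroxisomal enzyme that makes glyoxylate and hydrogen peroxide, is not held in leaf 1 and carries no test. It had 17413 and 12330 counts in protoplasts 1 and 2, against 30599 in leaf 2, or log2 ratios of -0.71 and -0.89. GLO1 (Zm00001d002261), which is annotated as a related oxidase, was scarce, with 93 and 50 counts in protoplasts, against 178 and 172 in whole leaf. Its log2 fold change of -0.94 (adjusted p = 0.0181, edgeR) did not reach the fold change limit. For the use of glyoxylate, serine--glyoxylate aminotransferase (Zm00001d031349) had a log2 fold change of -0.67 (adjusted p = 0.0718, edgeR), and its 279 CPM in protoplast 1 was close to the 298 CPM of leaf 1. The scarcer alanine--glyoxylate aminotransferase 2 homolog 1 (Zm00001d027861) was called lower, at -1.36. These genes thus had changes in the same range as those of the members.

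Glycine cleavage, the mitochondrial step that releases carbon dioxide and ammonia from glycine, changed far more. Glycine decarboxylase1 (Zm00001d023437) had 333 and 288 counts in protoplasts 1 and 2, against 18079 and 14582 in leaf 1 and leaf 2. Its log2 fold change was -5.33, a 40.1-fold lower level in protoplasts (standard error 0.17, adjusted p = 6.03e-06, edgeR). The lipoyl carrier of the same complex, glycine cleavage system protein H1 (Zm00001d023699), had 263 and 226 counts in protoplasts, against 8198 and 7280 in whole leaf, a log2 fold change of -4.60. Dihydrolipoyl dehydrogenase 2 (Zm00001d040721), a subunit type that glycine cleavage shares with other mitochondrial complexes, was called lower at only -1.03. The log2 ratio of PLGG1 to glycine decarboxylase1 was 5.87 and 5.38 in protoplasts, against 1.54 and 1.65 in whole leaf, and that difference of 4.03 equals 16.3-fold. For catalase 2 the corresponding difference was 4.29. Both have p = 0.333 in an exact two-sided permutation test, the smallest possible, and this gene was picked for the ratio after its values were seen. The members thus did not share the near loss of the glycine decarboxylase transcript.

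Behind glycine cleavage, the listed genes were higher or near level in protoplasts, but only leaf 2 holds them and no test was made. Whether the serine hydroxymethyltransferase among them acts in photorespiration was not tested. Serine hydroxymethyltransferase 7 (Zm00001d012247), of the enzyme family that interconverts glycine and serine, had 4027 and 3717 counts in protoplasts 1 and 2, against 2044 in leaf 2, and lay more than 2-fold above leaf 2 in both pools after scaling. Among all genes compared in this way, 17.7% lay that far above and 21.7% that far below. HPR (Zm00001d014919), the hydroxypyruvate reductase that makes glycerate in the peroxisome, had 15743 and 12097 counts in protoplasts, against 13935 in leaf 2. GLYK (Zm00001d035737), the chloroplast kinase for the glycerate that PLGG1 brings in and an MS marker of the study, had 25670 and 18862 counts in protoplasts, against 16634 in leaf 2. The log2 ratios to leaf 2 were 0.28 and 0.22 for HPR and 0.73 and 0.60 for GLYK. PLGG1 itself had -1.13 and -1.51 on this scale and catalase 2 had -1.36 and -0.69.

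The dicarboxylate carriers of the chloroplast, which serve the recovery of photorespiratory ammonia as well as C4 acid transport, parted from each other. Dicarboxylic acid transporter1 (Zm00001d005950) was close to the members, with a log2 fold change of -0.90 (adjusted p = 0.00629, edgeR) that did not reach the fold change limit. Dicarboxylic acid transporter2 (Zm00001d031253) had 283 and 240 counts in protoplasts, against 31531 and 25343 in whole leaf. Its log2 fold change of -6.38 lay somewhat below those of 3 BS markers. These were RBCS2 (the Rubisco small subunit, -5.84), PCK1 (a phosphoenolpyruvate carboxykinase, -5.41) and FBPA (Zm00001d023559, a fructose-bisphosphate aldolase, -5.98). RBCL, annotated on chromosome 2, was at -2.23, and MDH (Zm00001d034241), a malate dehydrogenase listed with the BS markers, was at -0.83 and not called. The tested MS markers MDH6 and PDRP1 were at 0.19 and 0.50 and not called. MDH thus lay nearer to 0 than either member, a difference that was not tested.

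**Figure D4:**
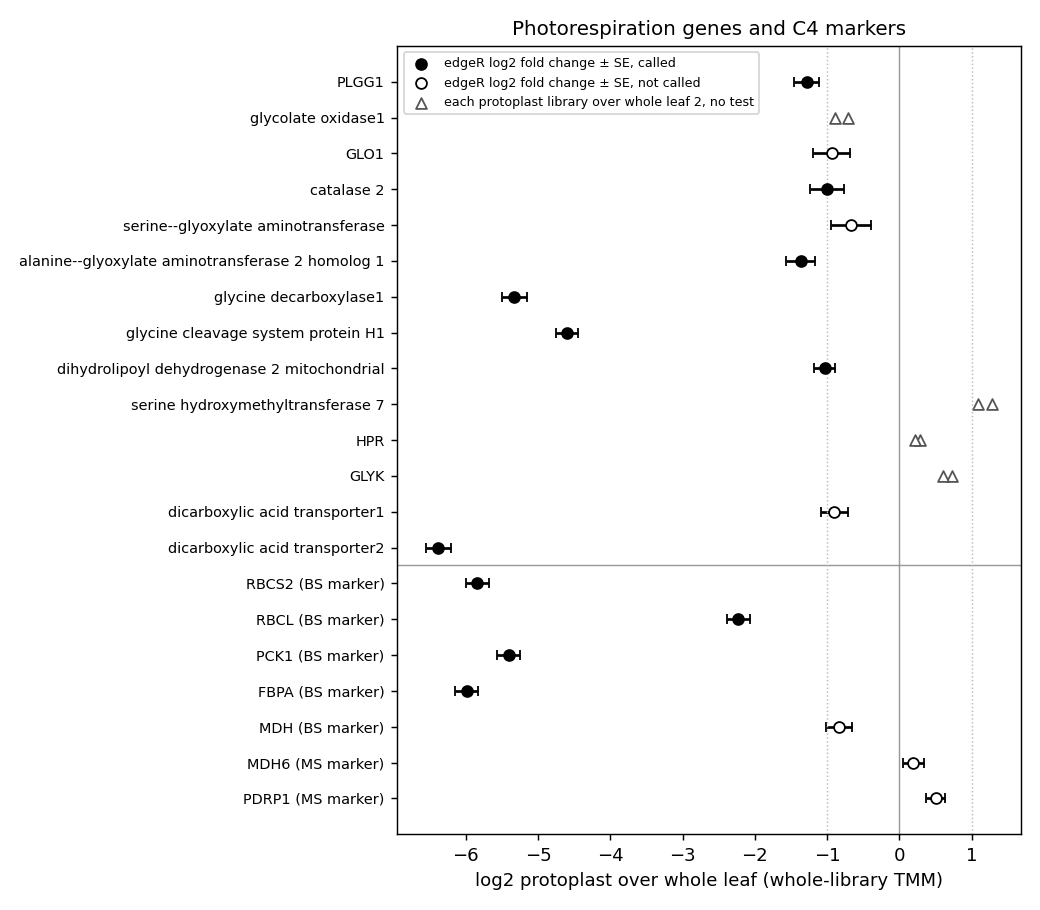
Log2 change (protoplast over whole leaf, whole-library TMM) of the photorespiration genes (above the grey line) and the tested C4 markers (below it); circles are edgeR log2 fold changes ± standard error, filled where called, and triangles are each protoplast pool over leaf 2 for genes not held in leaf 1. PLGG1 (-1.28) and catalase 2 (-1.003) lie near glycolate oxidase1 and dicarboxylic acid transporter1, well above glycine decarboxylase1 (-5.33) and dicarboxylic acid transporter2 (-6.38).

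The order of transcript levels within the route also differed. In the 3 complete libraries, and with CPM over the complete annotation per kilobase of exon, PLGG1 was at 213 and 164 in protoplasts 1 and 2, against 467 in leaf 2. It held place 3 of the 14 genes in both protoplast libraries and place 1 in leaf 2. GLYK held place 1 in both protoplast libraries, at 311 and 284 CPM per kilobase, and place 4 in leaf 2, at 187. Catalase 2 was at 52.8 and 83.8 CPM per kilobase in protoplasts and 136 in leaf 2, which are places 6, 5 and 7 of the route. In protoplast 2, PLGG1 and HPR were level, at 164 CPM per kilobase each. With 1 leaf library these orders have no replicate check on the leaf side.

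The genes most like the members over the 4 libraries were sought among tested genes of like level, by the root mean square distance between log2 CPM values centred on each gene's own mean. For PLGG1, with 101 candidates, these were Zm00001d039687 (photosystem I reaction center subunit XI, distance 0.0887), Zm00001d002690 (plasma membrane intrinsic protein1, of the aquaporin family, 0.101) and Zm00001d024148 (a subunit of the photosynthetic NDH complex, 0.111). The photosystem I gene had 31112 and 17662 counts in protoplasts 1 and 2, against 71700 and 63839 in whole leaf, with protoplast 1 the higher pool as for PLGG1. For catalase 2, with 404 candidates, the nearest were Zm00001d040422 (annotated as a sugar porter, 0.158), Zm00001d034673 (a Bowman-Birk type trypsin inhibitor, 0.187) and Zm00001d027756, which has no name in the tables used (0.188). The distance between PLGG1 and catalase 2 was 0.392. The distances above are the smallest among the candidates, so setting 0.392 beside them cannot show how unlike the members are. With 4 libraries this likeness is a description only.

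No annotated gene overlapped either member. The nearest genes to PLGG1 were 76638 bases away (Zm00001d030126) and 100275 bases away (Zm00001d030129). Both had negative log2 fold changes, of -0.56 and -2.80, the second on 12 and 2 counts in protoplasts against 63 and 63 in whole leaf. Catalase 2 had Zm00001d027510 at 64505 bases, with a log2 fold change of -0.90, and Zm00001d027512 at only 1704 bases. Zm00001d027512 had 17 and 8 counts in protoplasts, against 9 and 23 in whole leaf, so its counts were a very small addition beside those of catalase 2 and its log2 fold change was -0.01. Whether reads that map to several places were counted was not found in the sources used here, so a share of catalase 2 reads from other catalase genes cannot be told apart.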

How the data were processed

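The authors sequenced polyA RNA of 2 protoplast pools and 2 whole leaf pools. Reads were trimmed with Trim Galore 0.6.5, aligned with STAR 2.5.1b to the AGPv4 genome of B73 and counted per gene with featureCounts 2.0.1, and the authors deposited raw counts without normalization. Settings for strand and for reads with several positions were not given in the sources used here. The copy of leaf 1 analysed here ends within chromosome 3 and has 10 damaged lines, so its total is not a library depth. The complete libraries held between 41792981 and 47061988 counts.

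The software was R 4.3.3 with limma 3.58.1, DESeq2 1.42.0 and edgeR 4.0.16. After filterByExpr (9017 genes kept), the groups were compared in edgeR with TMM factors, robust quasi-likelihood fits and no replicate block, over all genes. A standard error is the size of a log2 fold change over the root of its F statistic. The script was tested on simulated data. Ratios were compared by exact permutation. The BS scaling multiplied the summed counts of the BS list by its TMM factor. For genes not held in leaf 1, CPM was scaled by TMM over the 3 complete libraries.

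Named genes were the members, the photorespiration list, the C4 markers, the called genes with the largest change in each direction of the hydrogen peroxide removal and peroxisome lists, the adjacent genes, and the 3 genes per member nearest in profile with a log2 CPM within 1 of it. The members and lists were chosen with earlier results of these data known. The genes of the closing section not held in leaf 1 and the ratio to glycine decarboxylase1 were picked after values were seen. Gene names come from the study's tables, since 0 nuclear identifiers matched the RefSeq table of assembly Zm-B73-REFERENCE-NAM-5.0. Alternatives covered scaling, tool, count filter, replicate block and leaving out each library. Wilson intervals are at 95%.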

Additional observations from a re-analysis of the deposited data

How the results depend on the processing

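Under the other tools, count filters and whole-library scalings, both members kept a negative log2 fold change, and PLGG1 kept its call throughout, from -1.14 (without protoplast 2) to -1.57 (library totals without TMM). Catalase 2 was not called at -0.99 with the complete annotation in the 3 complete libraries (an alternative added after seeing the data), and leaving out a library gave -1.41 to -0.70. That alternative, which also leaves out leaf 1, gave 4293 genes higher and 4754 lower among 23262 tested, and 1 photorespiration gene higher and 6 lower among 14. Requiring at least 10 counts in every library left 1295 genes lower among 7432. Library totals moved the median log2 fold change to -0.31 and the share of calls that were higher to 36.0%, against 45.6% with TMM (86.4% with BS scaling), and called 9 photorespiration genes lower.

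With BS scaling, PLGG1 ranged from -0.036 (without protoplast 1) to 0.34 and catalase 2 from 0.07 to 0.74 when a library was left out. DESeq2 size factors on the list gave 2.11 and 2.39 for PLGG1 and catalase 2, list totals 1.79 and 2.07, and BS markers alone 1.50 and 1.77, while the list without both members gave 1.09 for catalase 2. The cause was not tested. The catalase 2 to PLGG1 difference ranged from -0.27 to 0.78 when a library was left out.

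Replicate numbers are shared between the groups, but same-numbered deviations correlated at -0.21, so nothing shows that they pair the samples. With the replicate block the log2 fold changes were -1.30 for PLGG1 and -1.04 for catalase 2, and 0.15 and 0.41 with BS scaling. It called 1731 genes higher and 2029 lower, and the crossed pairing, added after seeing the data, called 1774 and 2128.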

Other observations

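A list for the removal of hydrogen peroxide held 16 other genes. It includes a superoxide dismutase (Zm00001d031908), an enzyme type that makes hydrogen peroxide and does not remove it. Of the 16 genes, 7 were tested, the superoxide dismutase among them, and 2 were called higher, 1 lower and 4 were not called. The median log2 fold change was 0.01, which is the value of the superoxide dismutase itself, against -0.02 for all genes tested. Of all genes tested, 19.6% were called higher and 23.4% lower. With BS scaling 5 of the 7 were called higher, the superoxide dismutase included, against 63.0% of all genes. The largest increase was that of a glutathione peroxidase (Zm00001d002704), an enzyme type that reduces peroxides, with 30762 and 34853 counts in protoplasts 1 and 2, against 3271 and 2528 in leaf 1 and leaf 2. Its log2 fold change was 3.91 (standard error 0.22, adjusted p = 2.56e-05, edgeR). The gene called lower was L-ascorbate peroxidase S (Zm00001d003643), which uses ascorbate to reduce hydrogen peroxide, with 264 and 112 counts in protoplasts, against 580 and 569 in whole leaf, and a log2 fold change of -1.27 (adjusted p = 0.00874, edgeR). Of the 9 genes not held in leaf 1, 1 lay more than 2-fold above leaf 2 in both protoplast pools, 1 lay more than 2-fold below and 7 lay between, against 17.7% above and 21.7% below over all genes compared in this way. The gene above was monodehydroascorbate reductase 1 (Zm00001d049954), which regenerates ascorbate, with 13733 and 18299 counts in protoplasts, against 570 in leaf 2. The gene below was a glutathione peroxidase (Zm00001d051392), with 88 and 71 counts in protoplasts, against 446 in leaf 2.

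Of the 12 genes of the peroxisome, where catalase acts, 5 were tested, with 1 called higher and 4 not called and a median of 0.07, where 19.6% of all genes were called higher. With BS scaling 5 of the 5 were called higher, against 63.0% of all genes tested. The gene called higher was peroxisomal membrane protein 13 (Zm00001d034358), with 3400 and 3589 counts in protoplasts, against 1389 and 1129 in whole leaf, and a log2 fold change of 1.88 (adjusted p = 0.000191, edgeR). Among the 7 genes held only in leaf 2 and the protoplasts, 2 lay more than 2-fold above leaf 2 in both pools, 1 lay more than 2-fold below and 4 lay between. Over all genes compared in this way, 17.7% lay above and 21.7% below. AAE7 (Zm00001d047663), which in Arabidopsis is a peroxisomal acetate-activating enzyme, had 3110 and 3728 counts in protoplasts, against 66 in leaf 2. 3-ketoacyl-CoA thiolase 2 (Zm00001d018487), an enzyme type of fatty acid beta-oxidation, had 12792 and 12133 counts in protoplasts, against 6551 in leaf 2. Peroxisomal membrane protein 2 (Zm00001d011761), the gene below, had 617 and 399 counts in protoplasts, against 1436 in leaf 2.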
